A study of Homo sapiens with 14 samples.

Results

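Chromosome 20 carried 376 of the 13808 KMT2D peaks in the deposited list (2.72%), and its peaks were divided by the position of their summit, the base of highest signal. The short arm (summits under 26 Mb) held 85 peaks, a stretch of band 20q11, called the 20q11 block, held 68 (first to last peak 31407738 to 34981783), and the rest of the long arm held 223. The members were taken by chromosome name alone. The block, in contrast, had been chosen from these same data, for its local background and its run of peaks. Every peak in it lay over a local background 1.5 or more times that of the genome. The peak density, the background, the fold enrichment and the fragment numbers of the block are therefore given as a description and were not tested.

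KMT2D is a histone methyltransferase that places the first methyl group on lysine 4 of histone H3, mainly at enhancers, where it works with coactivators and acetyltransferases; some of its binding is at promoters. In squamous epithelia it takes part in differentiation, and its gene is often mutated in squamous carcinomas of the head and neck (HNSCC). ChIP-seq recovers the DNA bound by a protein with an antibody, and a peak is a place where recovered fragments exceed those of a control library.

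The library was made with an antibody to KMT2D from SCC23 cells, an established human HNSCC line, with the wild-type KMT2D genotype. Its label gives a low glucose condition, and the study describes the cells as deprived of glucose. The series has 14 samples, and the other 13 (an input library, histone marks and histone H3, in wild-type and KMT2D knockout cells) were not analysed here. With 1 library and no replicates, nothing below was compared between conditions, and all intervals cover counting error within this library. The list gives no total depth for the library.

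For each peak, the list gives the fold enrichment, which is the scaled number of ChIP fragments at the summit over the local background after 1 is added to each, and a p-value from the same 2 quantities, so that both could be rebuilt. The local background is what the control predicts at the summit, the highest of the genome-wide level, the control over the summit itself, and the control averaged over 1 kb and 10 kb around it. At the genome-wide level it equalled 2.88 ChIP fragments. All positions of peaks are on GRCh37.

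The promoters of some genes with strong peaks at the start, meaning a summit within 2 kb of it, are printed as examples. The 5 promoters below are those of named genes with a peak at the start, and they come from all 3 stretches: STK35 and NOP56 from the short arm, RALY from the block, and ID1 and BLCAP from the rest of the long arm. Each runs 5′ to 3′ on the strand of its gene, from 250 bases before to 50 bases after the start, and is taken by gene symbol from RefSeq on GRCh38.p14, not from the peak's own coordinates. Capitals mark matches, on either strand, to TGANTCA (the AP-1 motif), TGACGTCA (the cyclic AMP response element), CCGGAA (an ETS core) and GGGCGG (a GC box). The FER1L4 start, with the strongest start peak of the block, is named only. At NOP56, RALY, ID1 and BLCAP the summits lay 0.158, 0.563, 0.912 and 1.13 kb from the listed starts, which are given to the nearest kb. By those starts the summits fall outside the printed bases, so the sequences describe promoters and not the DNA under the summits.
STK35 (chr20:2101577-2101876, plus strand): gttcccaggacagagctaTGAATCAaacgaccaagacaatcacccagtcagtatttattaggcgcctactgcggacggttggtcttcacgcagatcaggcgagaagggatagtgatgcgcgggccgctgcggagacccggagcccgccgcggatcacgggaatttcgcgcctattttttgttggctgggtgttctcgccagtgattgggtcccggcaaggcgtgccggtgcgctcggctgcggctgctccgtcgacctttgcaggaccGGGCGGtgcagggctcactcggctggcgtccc
NOP56 (chr20:2652382-2652681, plus strand): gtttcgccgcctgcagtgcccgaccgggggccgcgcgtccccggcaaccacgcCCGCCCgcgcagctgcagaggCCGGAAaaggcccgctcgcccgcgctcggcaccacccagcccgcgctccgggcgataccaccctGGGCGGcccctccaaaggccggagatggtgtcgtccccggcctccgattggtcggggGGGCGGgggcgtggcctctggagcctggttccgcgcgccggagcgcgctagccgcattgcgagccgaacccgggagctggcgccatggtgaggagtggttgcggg
RALY (chr20:33993661-33993960, plus strand): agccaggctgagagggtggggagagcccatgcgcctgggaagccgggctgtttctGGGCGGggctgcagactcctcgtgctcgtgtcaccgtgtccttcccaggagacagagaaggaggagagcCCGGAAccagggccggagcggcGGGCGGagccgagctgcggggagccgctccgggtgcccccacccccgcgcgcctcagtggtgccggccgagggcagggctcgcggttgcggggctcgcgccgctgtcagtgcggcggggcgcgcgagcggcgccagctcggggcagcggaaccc
ID1 (chr20:31605039-31605338, plus strand): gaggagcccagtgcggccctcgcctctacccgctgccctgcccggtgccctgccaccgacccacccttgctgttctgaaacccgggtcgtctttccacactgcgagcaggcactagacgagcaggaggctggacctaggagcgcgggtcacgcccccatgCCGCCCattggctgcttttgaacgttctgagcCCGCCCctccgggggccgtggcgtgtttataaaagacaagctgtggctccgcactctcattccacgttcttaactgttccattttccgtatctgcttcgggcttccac
BLCAP (chr20:37527827-37528126, minus strand): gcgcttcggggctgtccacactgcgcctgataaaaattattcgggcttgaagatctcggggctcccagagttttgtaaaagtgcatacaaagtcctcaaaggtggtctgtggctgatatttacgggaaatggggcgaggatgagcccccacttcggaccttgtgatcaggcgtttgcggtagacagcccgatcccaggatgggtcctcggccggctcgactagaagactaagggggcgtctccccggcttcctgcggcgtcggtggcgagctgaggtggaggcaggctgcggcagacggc

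The 5 sequences held between 22 and 42 CpG dinucleotides. Over the 27305 RefSeq promoters of the same length the median was 14 (quartiles 3 and 28). The 5 are examples chosen by their start peaks, so nothing is read from the difference. NOP56, which encodes a protein of the box C/D small nucleolar ribonucleoproteins, had most (42) and held 3 GC boxes and 1 ETS core. RALY, an RNA-binding protein gene, held 2 GC boxes and 1 ETS core, and ID1, an inhibitor of basic helix-loop-helix factors, held 2 GC boxes. STK35, a kinase gene, had the only AP-1 match of the 5, with 1 GC box, and BLCAP, a small membrane protein gene, held no match. Over all promoters, a GC box was found in 44.6%, an ETS core in 17.6%, an AP-1 match in 7.76% and the cyclic AMP response element in 1.98%. A match is a description of the letters in this window and not of a bound factor.

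Of the 3 stretches, the 20q11 block had the most peaks per Mb, and it had been chosen in part for its run of peaks. It held 17.9 peaks per Mb (exact Poisson 95% interval 13.9 to 22.7), the rest of the long arm 6.73 (5.88 to 7.68) and the short arm 3.27 (2.61 to 4.04). The block therefore had 2.66 times the density of the rest of the long arm (2.00 to 3.50) and 5.47 times that of the short arm (3.92 to 7.62). The rest of the long arm had 2.06 times the density of the short arm (1.60 to 2.68). Its length is counted from 26 Mb, although no peak lay between 26 and 30 Mb, which lowers its density. Measured from first to last summit, the densities were 19.0 per Mb in the block, 7.70 on the rest of the long arm and 3.41 on the short arm. The block is also the stretch richest in genes: in the GENCODE v44 gene order it spans 63 protein-coding genes, from MAPRE1 to MYL9, or 16.6 per Mb, against 8.97 per Mb for the rest of the long arm (297 genes) and 7.15 for the short arm (186 genes). Those genes were counted on GRCh38 between flanking genes and divided by the GRCh37 lengths. Counted per gene instead of per Mb, the block had 1.08 peaks (0.838 to 1.37), the rest of the long arm 0.751 (0.656 to 0.856) and the short arm 0.457 (0.365 to 0.565). The order of the 3 stretches was thus the same per gene, with closer values, and the intervals of the block and of the rest of the long arm met. The part of gene number in the density was not tested.

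**Figure D1:**
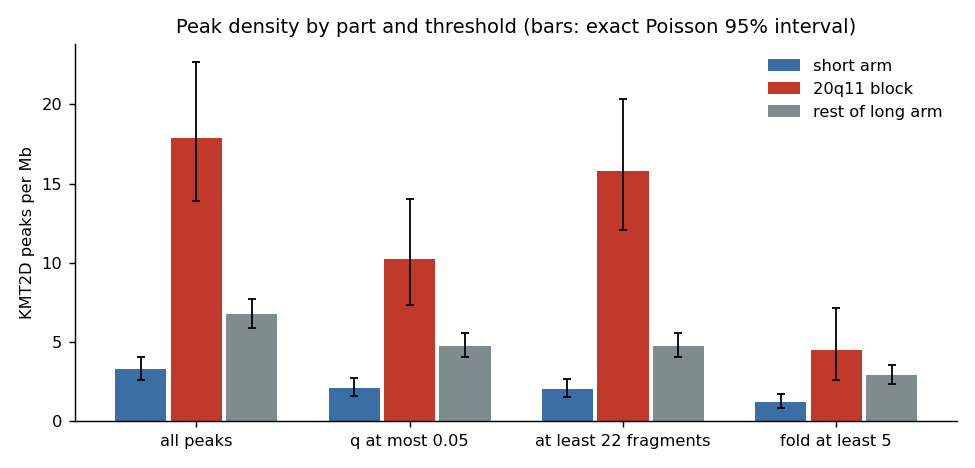
KMT2D peaks per Mb (vertical axis) on the short arm (blue), in the 20q11 block (red) and on the rest of the long arm (grey), for all peaks and for 3 stricter sets. Bars are the density and error bars the exact Poisson 95% interval in 1 library. The block is highest in each set, from 17.9 per Mb over all peaks to 4.47 per Mb at a fold enrichment of at least 5, where its interval overlaps that of the rest of the long arm.

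The density of the block depended on how strong a peak had to be. Among peaks with a fold enrichment of at least 5 the block held 4.47 per Mb (2.61 to 7.16), the rest of the long arm 2.90 (2.35 to 3.54) and the short arm 1.19 (0.810 to 1.69). The intervals of the first and the second of these overlapped. Among peaks with at least 22 fragments, the number that a p-value of 0.01 needs at the median background of the block, the block held 15.8 per Mb (12 to 20.3), the rest of the long arm 4.74 (4.03 to 5.54) and the short arm 2.00 (1.49 to 2.62). Measured by fragments the block stood further from the rest of the long arm than over all peaks, and measured by fold enrichment it stood closer to it. Peaks over the genome-wide background needed only 11 fragments to be listed, so the limit of 22 removes more peaks elsewhere than in the block. Fold enrichment is divided by the background for which the block was chosen. Both shifts thus go with that choice, and nothing is read from them.

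Peaks were spread unevenly outside the block too. In 2 Mb steps the highest densities were 22 per Mb from 32 to 34 Mb and 18.0 from 48 to 50 Mb. Next were 17.5 from 30 to 32 Mb and 16.5 from 34 to 36 Mb. The step from 48 to 50 Mb, with CEBPB, PTPN1 and PARD6B, lies outside the block. Of the 35 peaks from 30 to 32 Mb, only those at 31407738 to 31408192 and 31989199 to 31989524 were in the block. The others lay from 30148702 to 31172560, with clusters of 13 peaks near ID1 and 8 at BCL2L1, so parts outside the block were also dense. There were 13 peaks per Mb from 42 to 44 Mb and 11.5 from 52 to 54 Mb. No peak lay between 26 and 30 Mb, around the centromere. The longest gaps between summits were 6.24 Mb on the short arm (11248162 to 17487047), 4.93 Mb across the centromere (25218642 to 30148827) and 3.01 Mb on the short arm (5986703 to 8996463).

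Local background set the block apart by its choice, and its course along the chromosome is shown in the plot of background by peak order. In the block the background ranged from 1.54 to 8.22 times the genome-wide level, with a median of 2.79. The median was 1.00 on the short arm, where the highest value was 3.65, and 1.07 on the rest of the long arm, where the highest was 4.56. The background reached 1.5 times the genome-wide level at 68 of 68 peaks of the block, by its choice, at 78 of 223 peaks on the rest of the long arm and at 21 of 85 on the short arm, against 35.1% over chromosomes 1 to 22 and X. It reached 2 times that level at 54 peaks of the block, 29 of the rest of the long arm and 4 of the short arm, against 15.2%. Raised values therefore occurred outside the block too, singly or in runs of up to 5 peaks, though at no peak from 54 to 60 Mb, and no peak in the block was at the genome-wide level, by its choice. That level was the background at 85 peaks of the rest of the long arm and at 36 of the short arm, against 37% over chromosomes 1 to 22 and X.

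**Figure D2:**
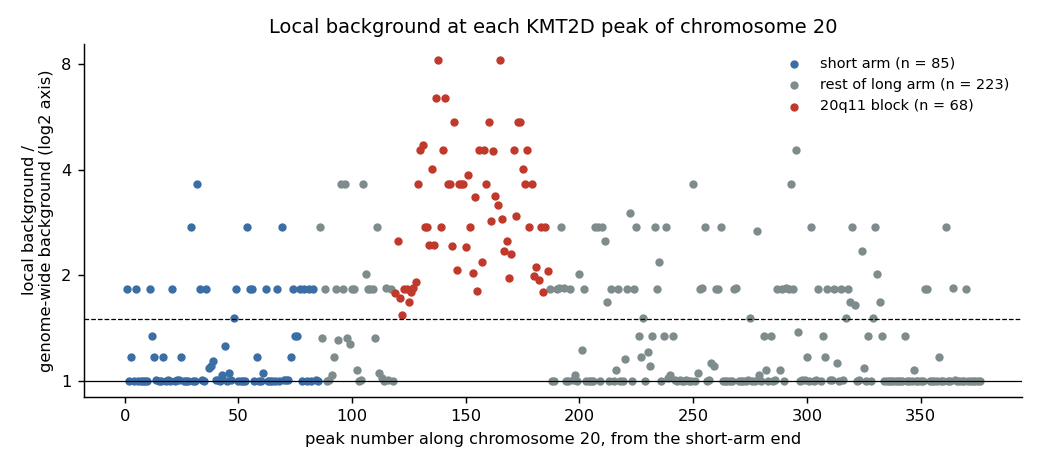
Local background over the genome-wide background (vertical log2 axis) for the 376 peaks of chromosome 20 in their order from the short-arm end (horizontal axis), colored by stretch. The solid line marks the genome-wide level and the dashed line 1.5 times it. The 68 red points of the 20q11 block all lie above the dashed line, from 1.54 to 8.22, while most points on either side lie at or near 1.

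Peaks at and over the threshold alternated next to the block. The last 4 peaks before it had backgrounds of 1.84, 1.00, 1.83 and 1.00 times the genome-wide level, the last of them, at 31172268 to 31172560, with 11 fragments. The first inside, at 31407738 to 31408192, beside the start of MAPRE1, a microtubule plus-end protein gene, had 24 fragments and 1.77 times. The last inside, at 34981425 to 34981783 in DLGAP4, a scaffold protein gene, had 20 fragments and 2.06 times. The next summit lay just past the end set for the block, at 35201710 to 35202214, and had 1.83 times, so it was raised but outside the block, and with it the unbroken run held 69 peaks. The 3 peaks after that, from 35213934 on, were at 1.00, 1.00 and 1.83 times. Single peaks on either side were thus raised as much as the first peak of the block. No summit lay in the 235.6 kb before the first peak of the block, and the raised run ended between summits 12.4 kb apart.

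Inside the block the background was not even. In 4 equal segments along the chromosome, the median background was 1.81, 3.65, 3.26 and 2.84 times the genome-wide level, over 10, 16, 26 and 16 peaks. The first segment had the lowest background, the fewest peaks and the lowest median fragment number (23.5, against 44, 40 and 36.5). The median fold enrichment of the segments was 3.44, 4.01, 3.62 and 3.25, a narrower range than that of the fragments.

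The background was set in different ways at different peaks. At 32 peaks of the block (47.1%) it came from the control over the summit itself, with 2 to 9 control fragments and a median of 4. At 36 (52.9%) it came from the 1 kb or 10 kb average, with a median of 2.32 times the genome-wide level. Over chromosomes 1 to 22 and X these shares were 24.3% and 38.7%. The block has no peak at the genome-wide level, by its choice, which raises its shares. On the rest of the long arm the summit itself set it at 55 peaks (24.7%), with a median of 2 control fragments, and the averages at 83 peaks (37.2%), with a median of 1.17 times. On the short arm the corresponding numbers were 20 peaks (23.5%) and 29 peaks (34.1%) with a median of 1.05 times. Both kinds were raised at every peak of the block they set, by its choice, and at the 32 peaks set by the summit itself the averages could not be seen.

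Peaks of the block had more ChIP fragments at their summits and lower fold enrichments than the other peaks of the chromosome. The median number of fragments was 36 (quartiles 26.8 and 60.8) in the block, 29 (20 and 41) on the rest of the long arm and 25 (18 and 31) on the short arm, beside 25 for chromosomes 1 to 22 and X. The median fold enrichment was 3.48 (2.75 and 4.81) in the block, 4.57 (3.48 and 6.42) on the rest of the long arm and 4.27 (3.50 and 5.73) on the short arm, beside 4.01 for chromosomes 1 to 22 and X. Fold enrichment and fragments thus ranked the 3 stretches differently. Since the background divides the fold enrichment, a peak at the median background of the block needed 22 fragments to reach the p-value of 0.01, against 11 at the genome-wide level, 14 at the lowest background of the block and 45 at its highest.

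**Figure D3:**
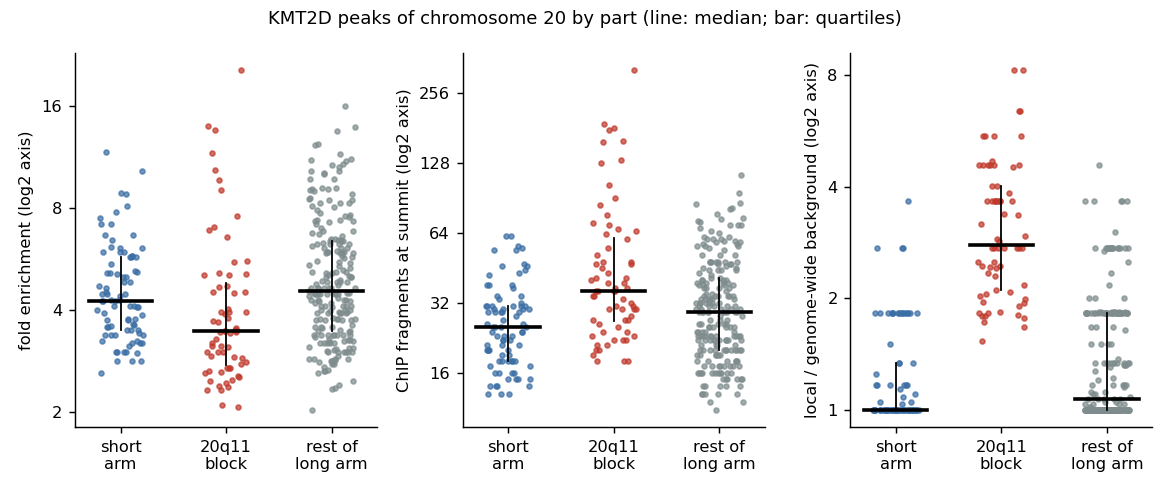
Fold enrichment, ChIP fragments at the summit and local background over the genome-wide background (3 panels, log2 axes) for each peak of the short arm, the 20q11 block and the rest of the long arm. Points are peaks, horizontal lines medians and vertical bars quartiles. The block has the lowest median fold enrichment (3.48) and the highest median fragment number (36) and background (2.79).

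Among peaks with similar fragment numbers, fold enrichment only mirrors the background, so a lower value in the block follows from its choice. Within the quartiles of the block, 26.8 to 60.8 fragments, there were 34 peaks in the block, 101 on the rest of the long arm and 35 on the short arm, with median fold enrichments of 3.34, 5.98 and 5.79. Of these, 46 of the 101 and 13 of the 35 had a background raised by 1.5 times or more, beside 51.9% of the 4912 such peaks elsewhere on chromosomes 1 to 22 and X. A raised background was therefore common among peaks with this many fragments everywhere, and all 34 in the block had it by its choice.

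**Figure D4:**
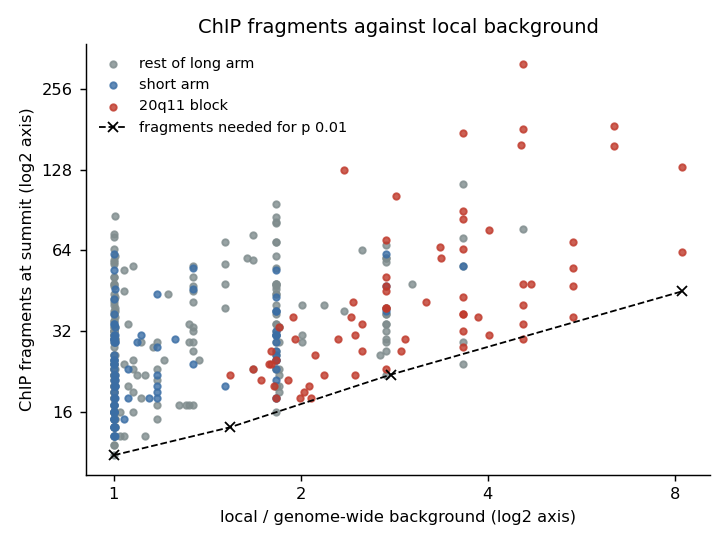
ChIP fragments at the summit (vertical log2 axis) against local background over the genome-wide background (horizontal log2 axis) for each peak of chromosome 20. Crosses joined by a dashed line mark the fragments that a p-value of 0.01 needs at 4 backgrounds (11, 14, 22 and 45). The red points of the 20q11 block lie to the right, with up to 319 fragments, and the lower limit of the list rises with the background.

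By significance the 3 stretches did not order as they did by density. Called significant here (q of 0.05 or less) were 39 of 68 peaks in the block (57.4%, Wilson 95% interval 45.5 to 68.4), 157 of 223 on the rest of the long arm (70.4%, 64.1 to 76.0) and 54 of 85 on the short arm (63.5%, 52.9 to 73.0), against 58.8% over chromosomes 1 to 22 and X. The share in the block was near that background. Fold enrichments of 10 or more belonged to 5 peaks of the block, 16 of the rest of the long arm and 2 of the short arm, against 4.39%. Peaks wider than 1000 bp numbered 5, 18 and 2, against 5.63%. The median width was 474.5 bp in the block, 407 bp on the rest of the long arm and 317 bp on the short arm.

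Genes are named below by position lists of chromosome 20 genes, which were written by hand on GRCh37 to the nearest kb and checked by the spacing of neighboring genes in GENCODE v44, since no GRCh37 annotation was used here. A peak is placed at the listed gene that holds its summit, or else at the listed gene whose start is nearest within 50 kb. The lists are fuller in the block than outside it, so shares of named peaks are not compared between the stretches. They include 15 genes added or corrected after the peaks were seen, among them STK35, FAM110A, RNF24, FER1L4, EDEM2, NORAD and SS18L1. A peak at 1 of these genes follows in part from how the gene was chosen.

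The strongest peak of the chromosome lay inside UQCC1, in the block. UQCC1 encodes an assembly factor of respiratory complex III, and its peak at 33892659 to 33894990 had 319 fragments, a fold enrichment of 20.4 and a background of 4.56 times the genome-wide level (q = 1.50e-112). It was the highest of the chromosome in both measures. A second UQCC1 peak, at 33895471 to 33896978, had a fold enrichment of 13.6 from 176 fragments, the next, at 33906141 to 33906657, had 10.3 from 159, and another, at 33899860 to 33900619, had 9.67 from 102. In all, 8 peaks lay in the gene over 23.4 kb (33892063 to 33915412), none within 5 kb of its start, and 7 of them were significant. Their fragments summed to 948, the highest sum of any cluster on the chromosome, over a median background of 3.51 times the genome-wide level.

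Other strong peaks of the block lay at and inside genes of several functions. The peak beside the start of FER1L4, a pseudogene transcribed as a long non-coding RNA, at 34194985 to 34195850, had 128 fragments and a fold enrichment of 13.9, over 2.34 times the genome-wide background. The peak inside ITCH, an E3 ubiquitin ligase gene, at 32978436 to 32979062, had 181 fragments and a fold enrichment of 11.6. Near the start of AHCY, whose enzyme breaks down the S-adenosylhomocysteine that methyltransferases produce, the peak at 32902095 to 32904454 had 187 fragments, the second highest number of the chromosome, with a fold enrichment of 9.02 over a background of 6.39 times the genome-wide level. A peak in DYNLRB1, a dynein light chain gene, at 33113624 to 33114177, had 157 fragments, 7.59 and the same background of 6.39 times.

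The list of the 10 highest folds of the block ended with peaks near EPB41L1, a membrane cytoskeleton gene, and at RALY. The EPB41L1 peak at 34673605 to 34674503 had 90 fragments and a fold enrichment of 7.05, and the RALY peak at 32581320 to 32582849, which lay at the start of the gene shown above, had 70 fragments and 6.91. The next peak below this limit, at 32377273 to 32377772 in the zinc finger gene ZNF341, had 6.59. The strongest peaks of the block were thus mostly inside genes and away from their starts, and 2 of the 10 lay within 2 kb of a listed start, at FER1L4 and RALY. FER1L4 is among the genes added or corrected after the peaks were seen, so its place in this count follows from that choice.

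Over all 68 peaks of the block, 28 lay at a listed start, 34 lay inside a listed gene away from starts, and 6 lay elsewhere. The listed starts include those of FER1L4, EDEM2 and NORAD, which were added or corrected after the peaks were seen, so these numbers rest in part on that choice. The median fold enrichment was 3.13 at starts, 3.85 inside genes and 5.09 elsewhere, and the median fragment numbers were 31.5, 42 and 70.5. Peaks at starts were the weakest of the 3 kinds by both measures, though they were wider than those inside genes (medians of 536.5 and 382.5 bp). The background also differed, with medians of 2.63, 3.26 and 4.11 times the genome-wide level, and its part in these differences was not tested. Weaker peaks at starts were not particular to the block. On the rest of the long arm starts also had the lowest medians (fold enrichment 3.66, 20 fragments). On the short arm they had the highest median fold enrichment (4.40) and the lowest median fragments (23).

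Some genes of the block had no peak. The stretch between its first and second summits, 581.5 kb long, held none, and SUN5, a testis nuclear envelope gene, and BPIFA1 and BPIFB1, secreted defense proteins of airway and oral epithelia, lie there in the gene order. The other genes of the block list without a peak in or within 10 kb of them were the peroxisomal protein gene PXMP4, the autophagy gene MAP1LC3A, the secretory pathway gene ERGIC3, the splicing factor gene AAR2 and the myosin light chain gene MYL9. Of the first gene list, 37 of 45 genes in the block had a peak, against 51.4% of the 179 genes of that list, and 25 had one within 2 kb of the start, against 30.2%. The list is fuller in the block, where peaks are also denser, so nothing is read from the difference.

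The rest of the long arm had its strongest peaks in the regions of PARD6B, ID1, SDC4 and PTPN1, most of them over backgrounds at or near the genome-wide level. The highest fold enrichment there was 16.1, with 86 fragments, at 49377948 to 49378856, about 30 kb from the start of PARD6B, an epithelial polarity gene, and a second peak near that gene, at 49341289 to 49341876, had 95 fragments and 12.4, over 1.83 times the genome-wide background. A peak at 30160298 to 30161475, with ID1 as the nearest listed start, had 74 fragments and 13.9. Inside SDC4, a heparan sulfate proteoglycan gene, the peak at 43965205 to 43966746 had 72 fragments and 13.6. Near PTPN1, a tyrosine phosphatase gene, the peak at 49113144 to 49113801 had 65 fragments and 12.3. The SDC4 peak and the UQCC1 peak at 33895471 to 33896978, in the block, both had a rounded fold enrichment of 13.6, with 72 and 176 fragments.

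The other peaks of the 10 highest folds on the rest of the long arm had between 57 and 85 fragments. They lay inside SRC, a tyrosine kinase gene (35987014 to 35987476, fold enrichment 11.5), near ID1 (30180978 to 30181935, 11.1), near CEBPB, a stress and differentiation transcription factor gene (48782423 to 48783093, 11), inside SS18L1, a chromatin remodeler subunit gene (60734949 to 60736825, 10.8), and at 49046887 to 49047965 with no listed gene within reach (11.2). The limit fell between the SS18L1 peak and a peak in RTEL1, a telomere helicase gene, at 62313711 to 62314401, which had 10.7. By fragments, the peak at the ID1 start, 30191713 to 30192987, was highest on the rest of the long arm, with 113 fragments, a fold enrichment of 8.80 and a background of 3.65 times the genome-wide level, and the RTEL1 peak had 82.

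The strongest peaks of the short arm had lower fold enrichments and fewer fragments than those of the other stretches, although its median fold enrichment was above that of the block. Its highest fold enrichment, 11.7 with 62 fragments, was at 22360065 to 22360531, with no listed gene within reach, and its second, 10.3 with 54 fragments, was near PYGB, a glycogen phosphorylase gene, at 25218197 to 25219049. A peak at 1396660 to 1396960, with the immunophilin gene FKBP1A as its nearest listed start, had 55 fragments and 8.89, and a peak at 19797657 to 19798095 with no listed gene had 46 and 8.81. Peaks at the starts of STK35 (2082520 to 2083389) and NOP56 (2632490 to 2633590) had 42 and 37 fragments and fold enrichments of 8.11 and 7.20, both at the genome-wide background. The most fragments at any peak of the short arm was 62, and 17 of the 68 peaks of the block and 17 of the 223 of the rest of the long arm had more. That limit was set by the short arm itself, and the share over the other chromosomes was not counted. Fragment numbers also go with the background for which the block was chosen, so nothing is read from these counts.

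The last of the 10 highest folds on the short arm were near DSTN, an actin-severing protein gene (17538371 to 17538576, 7.77), inside RIN2, a Rab5 regulator gene (19973595 to 19974180, 7.5), inside RALGAPA2, a Ral GTPase-activating protein gene (20530425 to 20530765, 7.18), and at the start of FAM110A (814097 to 814808, 6.65). The FAM110A peak tied at 6.65 with a peak at 3788781 to 3789004. By fragments, the peaks at 10982364 to 10983083, with no listed gene (62), and near RNF24, a ring finger protein gene, at 3999003 to 3999369 (56) joined the first 5, with fold enrichments of 6.15 and 4.46 over backgrounds of 2.74 and 3.65 times the genome-wide level.

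Neighboring peaks formed clusters, defined as at least 3 peaks with gaps of up to 12.5 kb, on each stretch. There were 30 clusters with 141 peaks (37.5% of the peaks of the chromosome), of which the short arm had 7 with 23 peaks, the block 6 with 28 and the rest of the long arm 17 with 90. The share of peaks in clusters was 27.1%, 41.2% and 40.4%. Clusters on other chromosomes were not counted, so there is no share of the whole list beside these values and nothing is read from them. The cluster with most peaks, 13 over 24.3 kb at 30175511 to 30199792, reached the start of ID1, and its fragments summed to 549. The second, 11 peaks over 28.5 kb at 60925052 to 60953560, lay at LAMA5, which encodes a laminin chain of epithelial basement membranes, with a sum of 313 and a median background of 1.00 times the genome-wide level.

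Clusters of 8 peaks lay at UQCC1 and at BCL2L1, an antiapoptotic gene. The BCL2L1 cluster, at 30283837 to 30311752, had a highest fold enrichment of 6.42, and 7 of its 8 peaks were significant. SDC4 had a cluster of 7 peaks, and TGM2, a transglutaminase gene, and ZMYND8, a chromatin reader gene, had clusters of 6. In the block, the clusters besides UQCC1 were at NECAB3 (5 peaks), FER1L4, EPB41L1 and DLGAP4 (4 each) and AHCY (3). The NECAB3 cluster, in the first of the 4 segments, had a highest fold enrichment of 3.50 and no significant peak.

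**Figure D5:**
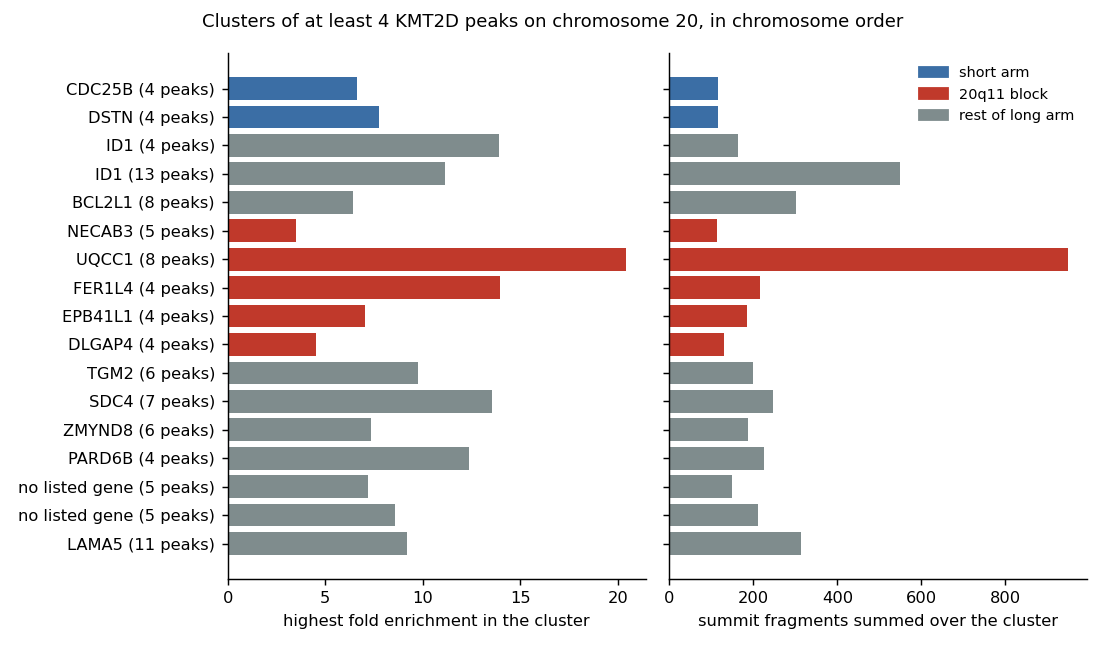
Highest fold enrichment (left) and ChIP fragments at the summits summed (right) for the clusters of at least 4 peaks on chromosome 20, in chromosome order, named by the listed gene at the strongest peak and colored by stretch. The UQCC1 cluster is highest in both (20.4 and 948), and the other block clusters have sums of 112 to 215, against 115 to 549 for the clusters outside the block.

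Peaks at 4 gene lists were counted with a window of 10 kb around each gene. Of 13 growth and cell cycle genes, 8 had a peak and 4 had a significant one, against 51.4% and 36.3% of the 179 genes of the first list. BCL2L1 had 10 peaks with a highest fold enrichment of 8.27, and SRC had 4 with 11.5. PTPN1 had 4 with 5.19, the peak of 12.3 named above lying outside its window, and the nuclear receptor coactivator gene NCOA3 had 1 with 4.11, at its start. ASXL1, a Polycomb-related chromatin gene, UBE2C, a mitotic ubiquitin-conjugating enzyme gene, and ZNF217, a transcription factor gene, had 1 each, of 3.75, 3.38 and 3.19. E2F1, the cell cycle transcription factor gene and the only one of the 13 in the block, had 4 peaks in its window, 3 of them in the neighboring NECAB3 or at its start, and the one at the E2F1 start, at 32274185 to 32274457, had 24 fragments and 3.42, over 1.79 times the genome-wide background. TPX2, TOP1, MYBL2, CSE1L and AURKA, which act in the spindle, DNA unwinding, transcription of cell cycle genes, nuclear export and mitosis, had none.

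Of 13 epithelial genes, 7 had a peak, and each of the 7 had a significant one, against the same 51.4% and 36.3%. SDC4 had 5 peaks, the highest at a fold enrichment of 13.6, TGM2 had 5 with a highest of 9.74, and LAMA5 had 10 with a highest of 9.20. OVOL2, a gene for a repressor that keeps epithelial identity, had 2 of up to 5.93, PTK6, an epithelial kinase gene, 3 of up to 5.02, TFAP2C, a surface ectoderm transcription factor gene, 2 of up to 4.47, and the Notch ligand gene JAG1 1 of 3.93. None of the 13 lies in the block, whose listed genes raise those shares. Of the first list, 45.7% of genes on the short arm and 39.4% on the rest of the long arm had a peak. A significant peak was found at 25.7% and 30.3%. The epithelial list is short and was not tested against these shares. The genes without a peak were the epidermal transglutaminase gene TGM3, the integrin activator gene FERMT1, the protease inhibitor genes PI3 and SLPI, the gelatinase gene MMP9 and the transcriptional repressor gene SNAI1.

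Of 10 metabolic and starvation genes, 6 had a peak, 5 of them a significant one, against 51.4% and 36.3% of the first list. In the block lie 4 of the 6, where most listed genes had a peak whatever their function. There, AHCY had 3 with a highest fold enrichment of 9.02, ACSS2, which makes acetyl-CoA from acetate, had 1 of 5.15 (65 fragments), TP53INP2, an autophagy gene, had 1 of 4.54 (41 fragments), and the glutathione synthetase gene GSS had 2 of up to 3.47. On the short arm, TRIB3, a pseudokinase gene of the stress response, had 3 of up to 4.84, and the mitochondrial acetate enzyme gene ACSS1 had 1 of 3.38. PYGB, MAP1LC3A, the glucose transporter gene SLC2A10 and the gluconeogenesis gene PCK1 had none in their windows, and the strong peak placed at PYGB above lay just outside its window.

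Of 9 coactivator and chromatin genes, 5 had a peak and 4 had a significant one, against 51.4% and 36.3% of the first list. ZMYND8 had 10 peaks, 8 of them significant, with a highest fold enrichment of 7.36. In the block, PHF20, a histone reader gene, had 3 peaks of up to 5.54 (76 fragments), and NCOA6, which encodes a subunit of the KMT2D and KMT2C methyltransferase complexes, had 2, of up to 4.54 and 55 fragments, of which the one of 4.54 is the TP53INP2 peak given above. NCOA3 and ASXL1 were given above. The DNA methyltransferase gene DNMT3B, the remodeler gene CHD6, the reader gene L3MBTL1 and the coactivator gene NCOA5 had none. Over the whole first list, 92 of 179 genes had a peak in or within 10 kb of them, 65 had a significant one and 54 had one within 2 kb of their start.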

How the data were processed

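The deposited list came from SCC23 cells with wild-type KMT2D, deprived of glucose per the study and in low glucose per the labels. Per the submitters' processing notes and the study's methods, the authors aligned reads to GRCh37 with Bowtie2 and called peaks with MACS2 at p below 0.01. The control was not named, and 1 library gave no replicate. The deposited fold enrichment is a ratio, the p- and q-values are −log10 values, and the score column, deposited beside them, was not used. Fragments and local background were rebuilt from fold and p-value, with 1 added to both sides of the ratio. The ChIP fragments were scaled by 0.381, the genome-wide background was 1.10 scaled fragments, and all 13808 p-values were returned to within 0.02 on the −log10 scale. The rebuilding was tested on simulated data.

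Densities used the lengths of the rule, 26, 3.8 and 33.1 Mb, with exact Poisson intervals, and shares used Wilson intervals, both at 95%. Intervals cover counting error only. The members, thresholds and gene lists were chosen with earlier results of these data known. Gene positions were written by hand on GRCh37 from general knowledge. Of 196 genes (15 added or corrected after the peaks were seen), 194 were kept, whose start lay within 2 kb of the place their neighbors in GENCODE v44 gave. PTPRA and ASIP were not kept. Named were the 10 peaks of highest fold and 5 of most fragments per stretch, with the listed gene holding the summit or of nearest start within 50 kb, and 4 gene lists; other block genes, clusters and BLCAP were chosen after their values were seen. RefSeq promoters were found for 137 of the 194 genes (70.6%), so a comparison of promoter content between gene sets is void and none is given. No coordinate was converted between builds. Computation used scipy 1.17.1 with numpy 2.4.6 and pandas 2.3.3 in Python 3.11.15, and figures matplotlib 3.10.9.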

Additional observations from a re-analysis of the deposited data

How the results depend on the processing

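Of 93 alternative values, 67 stayed within the 95% interval of the reported value (for the gene count, within 1.5 times of it) and 26 did not. Some of the 67 could not move. Narrowing the block, or leaving out peaks of high local background, removed no peak of the short arm or the rest of the long arm. The count is therefore no measure of how stable the values are. No paired analysis was possible because there was 1 library, and for the same reason no replicate could be left out. With q-values of at most 0.05 and 0.01, peaks per Mb fell to 2.08 and 1.77 on the short arm, 10.3 and 8.42 in the block and 4.74 and 4.11 on the rest of the long arm. The median fold enrichment then rose to 5.15 and 5.61, 4.54 and 5.09, and 5.69 and 5.97, and the median fragments to 30 and 31, 51 and 62.5, and 34 and 38, in that order of stretches. Both thresholds leave fewer and stronger peaks by construction. Measured from its first to its last summit, the rest of the long arm had 7.70 peaks per Mb, over a shorter length. With a p-value of at most 1e-05 in place of a q-value of at most 0.05, the share of its peaks that passed was 62.8%. The alternatives chosen after seeing the data gave 1.19, 4.47 and 2.90 peaks per Mb at a fold enrichment of at least 5, 2.00 (short arm) and 4.74 (rest of the long arm) at 22 fragments, and 54 genes with a summit within 2 kb of their start.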
